A study of Mus musculus with 7 samples.

Results

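The comparison set stomach-type tissue grown for 42 days from mouse embryonic stem cells against the stomach of adult mice. It used 2 of the 7 arrays of the series, 1 array per side, chosen by their labels alone. The day 42 tissue had been kept in DMEM/F12 with N2 and B27 supplements and 50 ng/mL EGF, to which FGF10 (100 ng/mL), Wnt3a, R-spondin1 (250 ng/mL), which strengthens Wnt signals, and Noggin, which blocks BMPs, were added. The labels give no strain, genotype or line for the stem cells, and do not say how many cultures went into the sample. Adult stomach was taken fresh from ICR mice that had received no treatment named in the labels, and the number, age and sex of the animals are not given. Total RNA was labelled with Cy3 and hybridized to Agilent one-colour arrays. The other 5 samples, used only for context, were a day 46 culture moved to Shh and Bmp4, adult esophagus, lung and intestine, and embryonic stomach taken at day 9.5 (E9.5).

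The adult mouse stomach has a glandular part and a keratinized forestomach. Gastric glands hold surface (pit) cells that secrete mucus and trefoil peptides, neck cells, parietal cells that pump acid, chief cells that store pepsinogen, and hormone-secreting endocrine cells, all renewed from stem cells in the gland. The forestomach is lined by a stratified squamous epithelium of keratinocytes, and the whole organ is wrapped in smooth muscle with nerves, vessels and immune cells. In the embryo the stomach forms from foregut endoderm, beside the buds of liver, pancreas and lung and close to heart mesoderm, under signals from its own mesenchyme.

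A level is the log2 signal of a gene relative to the 75th percentile of its array, and a difference is the level in the day 42 culture minus that in adult stomach, so that 1 stands for 2-fold. Where levels are given in pairs, the culture comes first and adult stomach second. Of 17044 genes with a named probe, 14822 were well above background on at least 1 of the arrays: 13060 on both, 300 on the day 42 array alone and 1462 on the adult stomach array alone. For the latter groups the fold is a lower bound, written "at least", in which the dim side takes the higher of its own signal and the lowest signal above background on its array. A gene in these groups can only come out even, or higher on the array where it was above background. Neither side was replicated, which leaves differences without an error or a test, and every count and median describes these arrays. The nearest measure of technical spread was the standard deviation between probes of the same gene, 0.87 for the log2 difference. The arrays lay on different slides and were read with different versions of the scanner software, so slide, software and tissue cannot be told apart. In whole tissue, fewer cells of a type and less RNA per cell cannot be told apart either.

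Most genes lay within 2-fold between culture and organ, and a minority differed by far more. At least 4-fold higher in culture were 1095 genes (7.39% of those measured), and 1527 (10.3%) were at least 4-fold lower. At the 2-fold limit used for the gene lists below, the background was 2989 genes higher (20.2%) and 3356 lower (22.6%), and the median difference over all measured genes was 0.00. Among genes above background on both arrays, 59.1% lay within 2-fold. The lower side reached further: 38 genes were at least 1024-fold lower and 5 at least 1024-fold higher. Centring each array on its median instead moved the median of all genes by 0.43 and the share of higher genes among those past 4-fold from 41.8% to 61.6%, so a list is read against the median of all genes.

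**Figure D1:**
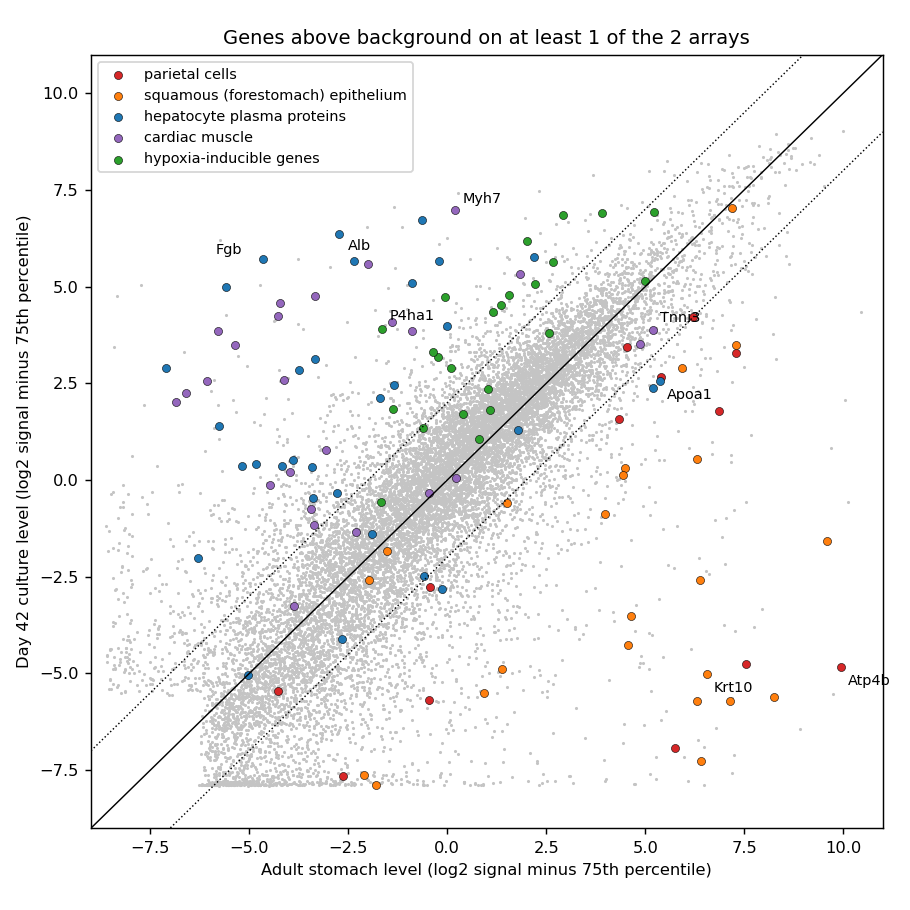
Level of each measured gene in adult stomach (horizontal axis) against the day 42 culture (vertical axis), both as log2 signal minus the 75th percentile of the array. Grey points are all 14822 measured genes, coloured points the members of 5 lists, the solid line equal levels and the dotted lines 4-fold; parietal and squamous genes lie mostly below the lines, and hepatocyte, cardiac and hypoxia genes mostly above them.

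Checked against their labels, the adult stomach array held 12 of 12 surface mucous genes, 9 of 10 chief cell genes and 13 of 13 parietal cell genes above background, and the day 42 array 10, 9 and 10. These counts lie near the 85.2% and 78.4% of all genes above background on the 2 arrays, and adult intestine also had 10 of the parietal and 9 of the chief cell genes above background. Most listed genes of liver-type secreted proteins, heart muscle and macrophages were higher in culture. Hepatocyte enzymes were closer to even, with 8 of 18 higher and 6 lower. The part of these groups in the differences of gastric genes was not tested.

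Genes of the acid-secreting parietal cell were uniformly lower in culture. Each of the 13 parietal cell genes measured, of 15 listed, was at least 2-fold lower, against 22.6% of all measured genes lower and 20.2% higher, with a median difference of -2.94. Of these 13, 10 were above background on both arrays (median -2.76). The rest were above background in adult stomach alone and could not come out higher. Atp4b, the beta subunit of the gastric proton pump, was at -4.84 in culture and 9.94 in adult stomach, a difference of -14.78, and Atp4a, its catalytic subunit, was at -4.76 and 7.55, a difference of -12.31. Both signals were still above background in culture, near the lower end of its range. Kcne2, the subunit of the potassium channel that feeds the pump, was above background only in adult stomach (level 5.75) and at least 2550.1-fold lower in culture. Kcnq1, the pore of that channel, differed far less, at 3.44 and 4.55. The cytosolic carbonic anhydrase Car2 was at 1.80 and 6.87, and the chloride-bicarbonate exchanger Slc4a2 at 2.65 and 5.40. The pump subunits and Kcne2 thus differed by more than Kcnq1, Car2 and Slc4a2.

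Chief cell genes were mostly lower. Of 10 measured, 6 were at least 2-fold lower and 1 higher, with a median of -2.89. The pepsinogen precursor Pgc was at 2.06 in culture and 10.04 in adult stomach, a difference of -7.99, so it remained clearly above background in culture while far below the organ. Pga5, another pepsinogen, was at -4.84 and 4.84, and the intrinsic factor Cblif at -0.77 and 7.24. Chia1, the acidic chitinase of the mouse stomach, was above background only in adult stomach (8.91) and at least 22736-fold lower in culture, the largest bound among genes with a name on the lower side. Bhlha15 (Mist1), the transcription factor of secretory chief cells, differed by -3.52. Lipf, the gastric lipase, was low on both arrays, at -4.64 and -4.56.

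Surface mucous genes were lower as a group, though not uniformly absent. Among 12 measured, 10 were at least 2-fold lower and 1 higher, with a median of -4.85. Of the 12, 10 were above background on both arrays (median -4.20), and the rest could not come out higher. Muc5ac, the secreted surface mucin, was at -3.32 and 7.94, a difference of -11.27. The trefoil peptide Tff1 was at 4.36 in culture and 10.44 in adult stomach, and the gastrokine Gkn2, its partner in the mucus layer, at 0.84 and 9.68. Gkn1 was above background only in adult stomach and at least 748-fold lower in culture. Gkn3, a gastrokine known in mice from the neck and isthmus of the gland, was the member on the other side, at 6.01 in culture and 3.17 in adult stomach. Only Gkn3 of the gastrokines and only Tff3, the intestinal member (1.66 and -0.84), of the trefoil peptides were higher in culture.

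The small neck cell list pointed both ways. Aqp5, a water channel that marks neck and isthmus cells of the antrum and is also made in salivary gland and lung, was at 6.55 in culture and -1.15 in adult stomach, a difference of 7.70. Tff2, the spasmolytic trefoil peptide of neck cells, was at 3.12 and 8.31, a difference of -5.19 in the other direction. Cd44, a surface receptor for hyaluronan, was at 4.41 and 1.38, but the other probes of Cd44 did not all give that direction. Stem and isthmus genes were close to even, with 4 of 9 higher and 2 lower (median 0.68). Lgr5, the receptor for R-spondins and a marker of antral stem cells, was at 2.43 in culture and -0.50 in adult stomach, the largest difference of that list. Lrig1, which restrains ErbB receptors in stem cells, differed by -1.24.

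Endocrine cell genes were lower as well. Of 21 genes, 16 lay at least 2-fold below adult stomach and 1 above it (median -2.52). Of these 21, 13 were above background on both arrays (median -3.32). Ghrl, the precursor of ghrelin, was at -3.81 and 7.74, a difference of -11.55. The granule protein Chga was at -2.36 and 6.55, somatostatin (Sst) at -3.07 and 5.35, and the histamine-forming enzyme Hdc at -0.18 and 3.17. The prohormone convertase Pcsk1 was above background in adult stomach alone and at least 31.5-fold lower in culture. Nts, which encodes neurotensin, was the 1 member higher in culture (-3.75 and -5.64), and gastrin (Gast) was barely measured in either tissue, at -5.41 and -3.66. Tuft cell genes were few, with 6 measured and a median of -0.06.

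The squamous lining of the forestomach gave many of the lowest differences. Of 23 squamous genes measured, 20 lay at least 2-fold below adult stomach and 0 above it, with a median of -5.76. Of these 23, 17 were above background on both arrays (median -4.87). The rest were above background in adult stomach alone and could not come out higher. Loricrin (Lor), the main protein of the cornified envelope, was at -1.57 and 9.59, a difference of -11.16. Krt10, a keratin of differentiating layers, was at -5.02 and 6.55, and its partner Krt1 was above background only in adult stomach, at least 6696-fold lower in culture. Krtdap, a keratinocyte differentiation protein, was at least 14406-fold lower. The basal layer genes named here were lower by a smaller margin than these: Krt5 was at 0.55 and 6.31, Krt14 at -0.88 and 3.99, and the basal cell transcription factor Trp63 at -4.90 and 1.38. Sprr2a1, a small proline-rich envelope protein also made by injured simple epithelium, was the member closest to even, at 7.03 and 7.21, though its probe may also read near-identical copies.

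Families around the cornified envelope and its proteases, chosen after their values were seen, were lower in the same way. Each of the 14 late cornified envelope (Lce) genes measured was at least 4-fold lower, with a median of -11.36, although these genes are near-identical neighbours whose probes may cross-hybridize. Among genes named Klk, 13 of 17 were at least 2-fold lower and 0 higher. These are kallikrein-related peptidases, apart from Klkb1, which encodes plasma kallikrein. Of the clade B serpins, which inhibit proteases inside cells, 14 of 19 were lower and 2 higher. Of 33 keratins measured, 17 were lower, and Krt7, a keratin of ductal and other simple epithelia, was the 1 that was higher, at 3.47 in culture and 0.26 in adult stomach. Each of these shares lay above the background of 22.6% lower, but the families were not chosen independently of their values. Some members of each family were above background in adult stomach alone and could not come out higher. The shares are therefore a description only.

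**Figure D2:**
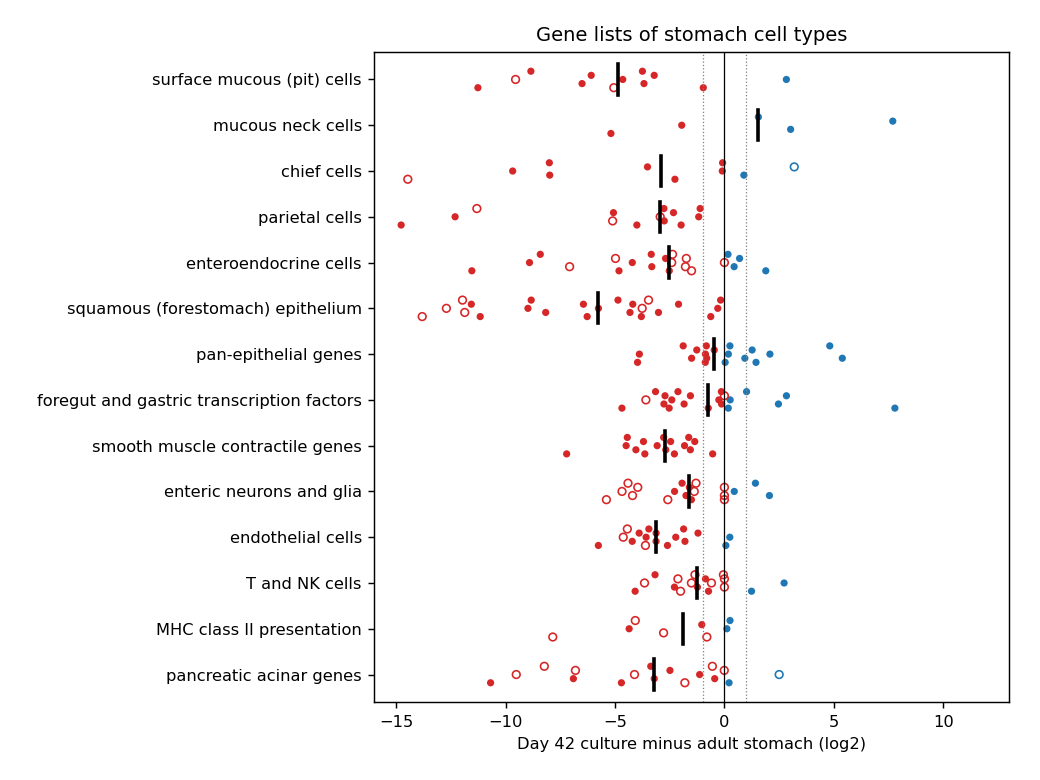
Difference between the day 42 culture and adult stomach (horizontal axis, log2) for each measured member of 14 gene lists of stomach cell types (rows). Filled points are genes above background on both arrays, open points bounds, black bars list medians and dotted lines 2-fold; the squamous and surface mucous medians lie furthest to the left, at -5.76 and -4.85, while pan-epithelial genes centre on -0.47.

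The general epithelial genes did not follow the gastric ones. Of 19 pan-epithelial genes, 5 were higher and 5 lower, with a median of -0.47. The simple keratin Krt8 was at 7.29 in culture and 8.10 in adult stomach, Krt18 at 7.83 and 7.64, and the adhesion protein E-cadherin (Cdh1) at 3.67 and 3.64. These general epithelial transcripts lay within 2-fold of the organ. Krt20, a keratin of mature surface cells in stomach and intestine, was at 1.04 and 3.66.

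The claudins, which set the permeability of tight junctions, differed in both directions. Cldn18, whose stomach isoform seals the gastric mucosa, was at -3.42 in culture and 4.19 in adult stomach, a difference of -7.61. Cldn7 was at 4.00 and -1.39, and Cldn3 at 1.94 and -2.88, in the other direction. Cldn2, a pore-forming claudin of leaky epithelia, was above background only in culture (3.31) and at least 792-fold higher. Cldn6, which is found mainly in embryonic epithelia, was likewise above background only in culture, at least 24.3-fold higher. Of 14 listed claudins measured, 7 were higher and 5 lower. Over all 23 claudins with a measured probe, 8 were higher and 10 lower.

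Transcription factors of the foregut and stomach were lower more often than higher, 10 against 4 of 21. Sox2, which specifies stomach and esophagus from the foregut, was at -3.03 and -0.62, a difference of -2.41. Gata4, a factor of glandular rather than squamous stomach, was at -4.64 and 0.05, whereas its relative Gata6 was at 2.73 and 2.87. Foxa2, a pioneer factor of endoderm, differed by -0.74. Pdx1, which marks antrum, duodenum and pancreas, was low on both arrays but higher in culture, at -2.99 and -5.83. Onecut2, a factor of liver, pancreas and gut endoderm, was at 4.03 and -3.77, by far the largest difference of the list at 7.79. Hhex, a factor of liver and ventral foregut, was at 0.71 and -1.76. Pdx1, Onecut2 and Hhex made up 3 of the 4 factors that were higher in culture, a share of the list near that of all measured genes.

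Intestinal genes gave no uniform picture. Cdx2, the intestinal master regulator, was above background only in culture, at the low level of -4.38 and at least 3.83-fold higher. Vil1, the brush border protein villin, was at 3.31 and 0.59, while the fatty acid carrier Fabp2 was at -3.41 and 0.77. Of 21 enterocyte genes, 5 were higher and 12 lower (median -1.33). Of 11 goblet and secretory genes, 2 were higher and 3 lower. Agr2, a protein of the mucin-folding machinery in the endoplasmic reticulum, was nearly equal in both tissues at 6.78 and 6.66, and the secretory cell factor Spdef was at 2.81 and 1.78.

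Mucosal defence genes were higher in culture, 11 of 16, with 4 lower and a median of 3.35. Lcn2, which binds bacterial siderophores, was at 3.89 in culture and -5.79 in adult stomach, a difference of 9.68. The antibacterial lectin Reg3b was above background only in culture, at least 306-fold higher, and Reg3g was at 1.70 and -4.62. Wfdc2, a secreted protease inhibitor of airway and other mucosal epithelia, was at 7.48 and 2.33. Pigr, which carries antibodies across epithelium, was at 1.09 and -2.25. Bpifb1, a secreted protein of the upper airway, went the other way, at 0.47 and 7.16, as did the granulocyte and squamous protein S100a9, at -3.79 and 2.56. In the Paneth cell defensin family (Defa), chosen after its values were seen, 5 of 7 were higher, but these copies are nearly identical and their probes cannot be taken as separate measurements.

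Genes of the muscular wall were lower in culture. Of 16 contractile genes of smooth muscle, 15 lay at least 2-fold below adult stomach and 0 above it (median -2.73). Smooth muscle myosin Myh11 was at 0.41 in culture and 4.90 in adult stomach, the enteric actin Actg2 at 2.29 and 6.34, and calponin (Cnn1) at 3.78 and 8.22. Synemin (Synm), an intermediate filament protein of muscle, was at -3.37 and 3.84, the largest difference of the list. The transgelin Tagln, which fibroblasts also make, was still abundant in culture at 5.78 against 8.56. Contractile muscle transcripts were thus present but lower in culture. Kit, the receptor of pacemaker (Cajal) cells and mast cells, was at -3.68 and 0.41.

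Nerve and vessel genes were lower too. Among 19 genes of enteric neurons and glia, 13 were lower and 2 higher. Only 8 of the 19 were above background on both arrays (median -1.56). The rest were above background in adult stomach alone and could not come out higher. Vip, a neuropeptide of gut motor neurons, and Elavl4, a neuronal RNA-binding protein, were above background only in adult stomach, at least 42.1-fold and 21.2-fold lower in culture. S100b, a calcium-binding protein of glia, was at 2.18 and 0.12, higher in culture. Of 17 endothelial genes, 15 were lower and 0 higher (median -3.13). Of these 17, 14 were above background on both arrays (median -2.86), and the rest could not come out higher. The VEGF receptor Kdr was at -4.80 and 0.96, the capillary protein Plvap at -1.33 and 2.89, and Pecam1 was above background only in adult stomach. The exceptions were Egfl7 (2.35 and 2.10) and Eng (-0.07 and -0.13), which were even.

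Transcription factors of the mesenchyme differed in both directions. Barx1, the mesenchymal factor that directs stomach identity in the overlying endoderm, was above background only in adult stomach (0.76), at least 80.0-fold lower in culture. On the E9.5 stomach array it was at 0.98, close to the adult level. Pitx1, a homeobox factor of posterior mesoderm and several epithelia, was at 1.13 and 5.30. Wt1, a factor of mesothelium, epicardium and other coelomic linings, was at 1.61 in culture and -3.21 in adult stomach, and mesothelin (Msln) at 6.77 and 1.97. The heart field factors Tbx5 and Hand1 were above background only in culture, at least 15.7-fold and 19.3-fold higher, and Nkx2-5 was at -0.13 and -4.48. Over the whole list, 9 of 22 mesenchymal factors were higher and 7 lower.

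Hox genes, which encode position along the body axis, differed in both directions too. Of 30 measured, 14 were lower and 7 higher. Hoxa5, a gene of stomach and lung mesenchyme, was at -5.41 and -1.78, Hoxb5 at -4.50 and -0.69, and Hoxa7 at -2.63 and 1.04. In contrast Hoxa10, Hoxa11 and Hoxc9 were above background only in culture, at least 20.4-fold, 40.6-fold and 62.4-fold higher. Hoxa10 and Hoxa11 belong to the posterior end of their cluster, which is active in limb and urogenital mesenchyme.

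Lymphoid genes were lower more often than higher in culture, and red cell genes differed by member. Of 7 erythroid genes measured, 4 were lower and 1 higher, and of 9 granulocyte genes, 2 and 3. The alpha globin Hba-a1, which has a near-identical copy, was at -4.90 in culture and 5.09 in adult stomach, a difference of -9.99, and the red cell haem enzyme Alas2 at -3.88 and -0.01. Among 17 T and NK cell genes, 9 were lower and 2 higher, and of 9 B and plasma cell genes, 5 and 1. Only 8 and 5 genes of these lists were above background on both arrays, with medians of -1.05 and -0.35. The rest were above background in adult stomach alone and could not come out higher. The antibody joining chain Jchain was above background only in adult stomach and at least 124-fold lower. Cd74, the invariant chain of MHC class II, was at -0.75 and 3.61, and H2-Aa was above background only in adult stomach. None of the 13 genes of MHC class I presentation differed by 2-fold in either direction.

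Macrophage genes were higher in culture: 23 of 28, with 0 lower and a median of 2.08. Of the 28, 26 were above background on both arrays (median 2.02), and the rest could not come out lower. Marco, a scavenger receptor, was at 6.56 in culture and -2.03 in adult stomach, a difference of 8.59. Adgre1, the F4/80 antigen of mouse macrophages, was at 4.68 and 0.74, Cd14, a co-receptor for bacterial lipopolysaccharide, at 3.95 and 0.29, and osteopontin (Spp1) at 7.88 and 3.68. Mrc1 and Cd163, receptors of resident tissue macrophages, were among the 5 members within 2-fold, at differences of -0.38 and -0.97. In the list of inflammatory cytokines and chemokines 13 of 22 were higher and 1 lower. Over whole chemokine families the split was more even, with 9 of 18 Ccl genes higher and 3 lower and 4 of 10 Cxcl genes higher and 3 lower. Cxcl5, which attracts neutrophils, was at 1.75 and -5.34, the monocyte attractant Ccl2 at 3.08 and -1.50, and Il6 was above background only in culture, at least 43.4-fold higher. The interferon response list did not share this direction, with 1 of 18 higher and 6 lower.

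Liver-type secreted proteins were among the groups furthest above adult stomach. Of 31 plasma protein genes of hepatocytes, 23 were at least 2-fold higher and 5 lower, with a median of 4.30. Albumin (Alb) was at 5.67 in culture and -2.37 in adult stomach, a difference of 8.03. The fibrinogen chains, which form 1 clotting protein and are encoded side by side, were all higher: Fgb at 5.71 and -4.65, Fgg at 5.00 and -5.60, and Fga at 0.37 and -5.19. Fgg had the largest difference of any gene above background on both arrays, 10.59. The carrier Ahsg (fetuin A) was at 6.72 and -0.64, transferrin (Trf) at 5.66 and -0.21, and alpha-fetoprotein (Afp), made by fetal liver and yolk sac, at 2.45 and -1.33. Several others did not follow: Apoa1, the main protein of high-density lipoprotein, was at 2.56 and 5.37, and transthyretin (Ttr) at -2.48 and -0.59.

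The metabolic enzymes of hepatocytes did not differ to the same extent. Of 18 measured, 8 were higher and 6 lower, with a median of 0.48, and 6 further enzymes were above background on neither array. The urea cycle enzyme Ass1 was at 2.53 and -0.71. Tdo2, which degrades tryptophan in hepatocytes, was at -2.80 and -5.10, and the cytochrome Cyp3a11 at -3.48 and -2.08. The list medians of secreted proteins and enzymes were far apart, a description for which no test was available.

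Acute phase proteins, which liver and some epithelia secrete in inflammation, were higher in 19 of 20 genes (median 6.02). The list shares the fibrinogens, Hp, Cp, Hpx and Itih4 with the plasma protein list, so the counts are not separate evidence. Haptoglobin (Hp) was at 6.37 and -2.73, serum amyloid Saa3, which macrophages and fat cells also make, at 7.06 and -1.35, and the protease inhibitor Serpina3n at 5.72 and -3.76. Hepcidin (Hamp), the iron hormone, was the 1 exception, being above background only in adult stomach. Hamp2, a paralog of hepcidin, was at -5.44 in culture and 5.14 in adult stomach. Of 21 complement and clotting genes, 14 were higher and 3 lower.

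Alb and Fgb were also read on the other arrays. Alb was at 6.08 on the day 46 culture array, -7.38 in E9.5 stomach, where it was not above background, 0.67 in esophagus, -2.41 in lung and 0.41 in intestine. Fgb was at 5.00 on the day 46 array, -5.72 in E9.5 stomach and 0.49 in intestine. Liver was not analysed here. The summed linear signal of the plasma protein list, relative to the 75th percentile, did not set the cultures apart from intestine. It was 536 at day 42, 316 at day 46, 602 in intestine and 92.9 in adult stomach. For the hepatocyte enzymes it was 16.6, 24.4, 588 and 17.2 in the same order. Gene by gene the plasma protein list did differ. Of 31 genes, 25 were at least 2-fold higher at day 42 than in intestine and 4 lower (median 2.86).

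**Figure D3:**
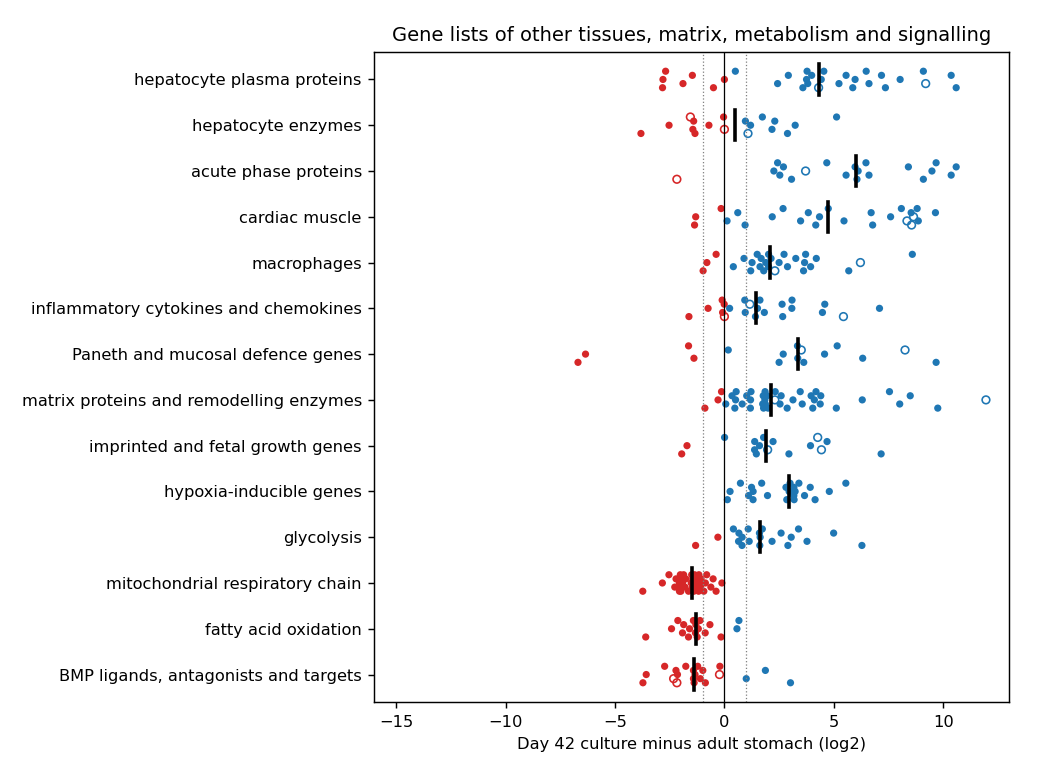
Difference between the day 42 culture and adult stomach (horizontal axis, log2) for each measured member of 14 lists of other tissues, matrix, metabolism and signalling (rows). Filled points are genes above background on both arrays, open points bounds, black bars list medians and dotted lines 2-fold. Acute phase proteins have the median furthest to the right, 6.02, and the medians of the mitochondrial, fatty acid and BMP lists lie left of 0.

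Heart muscle genes were the other group of another organ far higher in culture. Of 25 measured, 19 were higher and 2 lower (median 4.75). Of the 25, 22 were above background on both arrays (median 4.26), and the rest could not come out lower. The cardiac myosin Myh6 was at 4.57 in culture and -4.24 in adult stomach, a difference of 8.81, and Myh7, the slow isoform, at 6.97 and 0.20. The atrial peptide Nppa was at 4.75 and -3.34, and the thick filament protein Mybpc3 at 4.25 and -4.29. The ventricular light chain Myl2 and the troponin Tnnc1 were above background only in culture, at least 325-fold and 377-fold higher. Myoglobin (Mb), shared with skeletal muscle, was at 4.28 and -5.58. The exceptions were the cardiac actin Actc1 (3.51 and 4.87) and the troponin Tnni3 (3.89 and 5.20), both abundant in the adult stomach sample.

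Skeletal muscle genes had no common direction, with 5 of 14 higher and 4 lower. Myh8, a perinatal myosin, was at 4.00 and -1.57, and Acta1, the skeletal actin, at -1.48 and 2.02. In E9.5 stomach Myh6 was at -1.72 and Nppa at -3.84, both below the culture. Against adult esophagus the heart muscle list was split, with 12 of 24 genes at least 2-fold higher at day 42 and 11 lower (median 0.41). Against lung 16 of 25 were higher and 0 lower, and against intestine 20 of 25 and 2.

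Of 11 lung epithelial genes measured, 4 were higher and 4 lower (median -0.55). The surfactant protein Sftpd, which is also secreted by stomach and other mucosae, was at 4.11 in culture and -4.38 in adult stomach, a difference of 8.50, and the aspartic protease Napsa at 2.22 and -2.88. Sftpc, the surfactant protein restricted to alveolar cells, was not above background in culture. Of 17 pancreatic acinar genes, 12 were lower in culture and 1 higher (median -3.21), and 9 of the 17 were above background on both arrays. Colipase (Clps) was at -0.56 and 10.13, and the phospholipase Pla2g1b at -5.54 and 9.75, the most negative difference of any gene above background on both arrays (-15.30). Both proteins are best known from pancreatic juice. The culture signal of Pla2g1b lay just above the lowest level above background on the day 42 array, -5.57. The acinar factor Ptf1a and the enzymes Prss2 and Pnliprp1 were above background in adult stomach alone, whereas Cpa1 and Pnlip were near the lower limit there, at -5.56 and -5.02. The summed linear signal of the list relative to the 75th percentile was 3.70 in culture and 1155 in adult stomach. Its part in the other differences was not tested.

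Matrix genes were higher in culture on a broad front. Of 42 matrix proteins and remodelling enzymes, 33 lay at least 2-fold above adult stomach and 0 below it (median 2.15), as did 12 of 16 fibrillar and basement membrane collagens, with 0 lower. Over all 36 collagen genes measured, 19 were higher and 6 lower. Lox, which cross-links collagen and elastin, was at 3.89 and -3.65, a difference of 7.55. Fibronectin (Fn1) was at 4.45 and 0.34, the protease inhibitor Timp1 at 6.09 and -0.21, and the collagen chain Col1a1 at 7.03 and 4.54. Among matrix metalloproteinases (Mmp), a family chosen after its values were seen, 13 of 16 were higher and 0 lower. Mmp7, matrilysin, an enzyme of secretory epithelia, was above background only in culture (6.21) and at least 3971-fold higher, the largest bound on the higher side. Mmp3 and Mmp10, the stromelysins, were at 5.03 and -4.72 and at 2.95 and -5.06. Of 18 TGF-beta and myofibroblast genes, 13 were higher. Inhba, which forms activin, was at 2.14 and -2.82.

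The signalling lists were read beside the factors in the medium. BMP genes were lower, 14 of 21 against 2 higher (median -1.39), in a culture that contained Noggin. The direct target Id3 was at 0.15 in culture and 3.87 in adult stomach, Id1 at 2.45 and 3.44, and Smad6, a feedback inhibitor, at -0.98 and 0.43. Bambi, a pseudoreceptor that is also a Wnt target, was the largest exception at 1.48 and -1.54. With Wnt3a and R-spondin1 in the medium, 6 of 18 Wnt targets were higher and 1 lower (median 0.56). Axin2, the most general target, was at -1.38 and -2.62, Rnf43, which removes Frizzled receptors, at 3.97 and 1.89, and the secreted inhibitor Notum was above background only in culture. Sfrp2, a secreted Wnt antagonist of stroma, was at -3.25 and 0.81. Whether the factors in the medium account for these differences was not tested.

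With EGF and FGF10 present, 9 of 27 genes of the FGF and EGF pathways were higher and 5 lower. Etv4, an ETS factor induced by FGF, was at 0.77 and -3.20, its relative Etv5 at -4.19 and -4.01, and the phosphatase Dusp6 at 4.69 and 3.52. The culture's own Fgf10 transcript was at -0.58 and -3.42. In the hedgehog list 2 of 13 were higher and 4 lower (median 0.15). Its targets gave differences of -0.54 for Gli1 and -2.26 for Ptch1, and Shh, a ligand of gastric epithelium, was above background only in adult stomach, at least 31.0-fold lower in culture. In the Notch list 7 of 16 were lower and 1 higher, with the feedback target Nrarp at -4.75 and -1.27. In the retinoic acid list 7 of 13 were higher and 4 lower. The retinoid-forming enzyme Aldh1a1 was at 2.87 and 6.40.

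Fetal growth genes were higher in culture. Of 16 imprinted and fetal genes, 13 were higher and 2 lower (median 1.88). Igf2, the fetal insulin-like growth factor, was at 7.43 in culture, 0.27 in adult stomach and 6.60 in E9.5 stomach, so for this gene the culture was nearer the embryo. It did not stand for its list: 15 of 18 genes were at least 2-fold lower at day 42 than in E9.5 stomach and 1 higher (median -3.02). Dlk1, a surface protein of fetal cells, was at 2.28 and -2.41, and Igf2bp1 and Igf2bp3, RNA-binding proteins of embryonic tissue, were above background only in culture. Igfbp1, which binds insulin-like growth factors and is made chiefly by liver, was above background only in culture and at least 2608-fold higher. Proliferation genes were not part of this: of 29 cell cycle genes, 2 were higher and 4 lower, with a median of -0.30. The higher ones were E2f1 (-0.30 and -3.51) and Ccne1 (1.79 and -0.24), which act at entry to DNA replication. Among p53 targets and senescence genes, 10 of 15 were higher and 1 lower. Cdkn2a, the locus of the cell cycle inhibitors p16 and p19, was above background only in culture (-0.70), at least 49.0-fold higher, while Cdkn1a was even at 3.88 and 3.66.

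Genes of energy metabolism separated by pathway. Of 23 hypoxia-inducible genes, 20 were at least 2-fold higher in culture and 0 lower, with a median of 2.96. P4ha1, which hydroxylates collagen prolines, was at 3.90 in culture and -1.65 in adult stomach, a difference of 5.55. Vegfa, the vascular growth factor, was at 4.78 and 1.55, Bnip3, a mitochondrial protein that triggers mitophagy, at 5.63 and 2.67, and Egln3, an oxygen sensor, at 5.06 and 2.21. Higd1a was the member closest to even, at 5.14 and 5.01. Of 21 glycolytic genes, 14 were higher and 1 lower (median 1.62). Hexokinase Hk2 was at 4.64 and -0.35, the lactate exporter Slc16a3 at 6.27 and -0.02, and the glucose transporter Slc2a1 at 6.10 and 2.71. Hk1, the constitutive hexokinase, was the 1 lower member, at -0.37 and 0.95.

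The promoters of Bnip3 and P4ha1 are shown because both genes were among the higher ones and their windows hold ACGTG, the core of the hypoxia response element bound by HIF. The windows span 250 bases before to 50 after the start (RefSeq, GRCm38.p6), in the direction of transcription, with ACGTG or its reverse complement CACGT in capitals.
Bnip3, chr7:138909457-138909756, minus strand: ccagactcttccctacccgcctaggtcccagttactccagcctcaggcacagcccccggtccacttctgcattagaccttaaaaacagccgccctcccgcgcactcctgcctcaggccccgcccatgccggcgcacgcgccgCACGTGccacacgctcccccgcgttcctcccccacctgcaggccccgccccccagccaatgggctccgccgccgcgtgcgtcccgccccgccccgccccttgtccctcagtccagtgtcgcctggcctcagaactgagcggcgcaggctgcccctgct
P4ha1, chr10:59323046-59323345, plus strand: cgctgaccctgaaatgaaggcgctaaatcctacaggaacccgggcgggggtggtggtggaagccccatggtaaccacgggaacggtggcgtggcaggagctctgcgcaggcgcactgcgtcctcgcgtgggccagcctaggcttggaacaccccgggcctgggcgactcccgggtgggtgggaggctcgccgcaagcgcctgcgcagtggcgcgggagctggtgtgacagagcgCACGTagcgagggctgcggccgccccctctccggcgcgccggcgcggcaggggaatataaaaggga
In Bnip3 the matches on the opposite strands overlap in 1 palindrome at positions -108 and -107, and in P4ha1 the match starts at position -16, counted from the start site. A match describes letters in the window and not binding. Searched on both strands, the motif occurred in 15 of 27 windows of the hypoxia list (55.6%), 17 of 33 of the glycolysis list (51.5%) and 19.6% of all 32851 windows. In the other 6 lists searched (plasma and acute phase proteins, cardiac muscle, squamous, parietal and surface mucous genes) the share ran from 0% to 25%. The hypoxia list was itself drawn from known targets of HIF, so this share is a property of the list and not of the arrays.

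Mitochondrial genes lay on the other side. Of 37 respiratory chain genes, 30 were at least 2-fold lower in culture and 0 higher (median -1.46), with a largest difference of -3.73 for Cox6b1, a subunit of cytochrome oxidase. Cox5a, another subunit, was at 5.78 and 7.77, the ATP synthase subunit Atp5b at 6.90 and 8.39, and the complex III core protein Uqcrc1 at 4.63 and 6.27. The muscle form of a cytochrome oxidase subunit, Cox6a2, was higher instead, at 4.21 and -4.31. Over the 16 measured genes named Cox4 to Cox8, a family chosen after its values were seen, 4 were higher and 9 lower. In the citric acid cycle list 17 of 25 were lower and 0 higher, and in fatty acid oxidation 13 of 18 and 0. Ogdh, a rate-setting dehydrogenase of the cycle, was at -1.03 and 2.11, the coactivator of mitochondrial genes Ppargc1a at -1.05 and 1.14, and the fatty acid sensor Ppara at -2.79 and 0.81. Genes of parietal cells, which are rich in mitochondria, and of smooth muscle were lower in the same comparison (medians -2.94 and -2.73). Heart muscle genes were higher (median 4.75). The part of these cell types in this result was not tested.

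The remaining metabolic lists varied. Of 22 lipid synthesis genes, 5 were higher and 2 lower. Of 23 genes of the unfolded protein and amino acid responses, 8 were higher and 4 lower. Detoxification was lower, 11 of 17 against 3, with Adh7, the alcohol dehydrogenase of stomach, above background only in the adult organ and at least 69.2-fold lower in culture. The quinone reductase Nqo1 was at 0.07 and 4.26. Lysosomal genes were higher, 11 of 20 with 0 lower, including the cathepsin Ctsl at 7.19 and 4.93. Among transporters, the chloride channel Cftr was at -0.98 and -5.77, the water channel Aqp3 at -1.55 and 4.65, and Kcnj16, an inward rectifier potassium channel, was above background only in adult stomach, at least 1047-fold lower in culture.

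The other arrays place the gastric genes as well. Atp4b was at -3.87 on the day 46 array and -4.15 in E9.5 stomach, as low as in esophagus (-4.15) and intestine (-4.07). Muc5ac was at 0.28 on the day 46 array, between day 42 (-3.32) and the adult organ (7.94), and Gkn2 was at 7.23. Pgc was at -1.48 on the day 46 array, below day 42 (2.06). The day 46 array lay on a further slide, so these levels are a description. Marco was at 5.99 on the day 46 array, and no adult organ exceeded the intestine's 2.06.

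**Figure D4:**
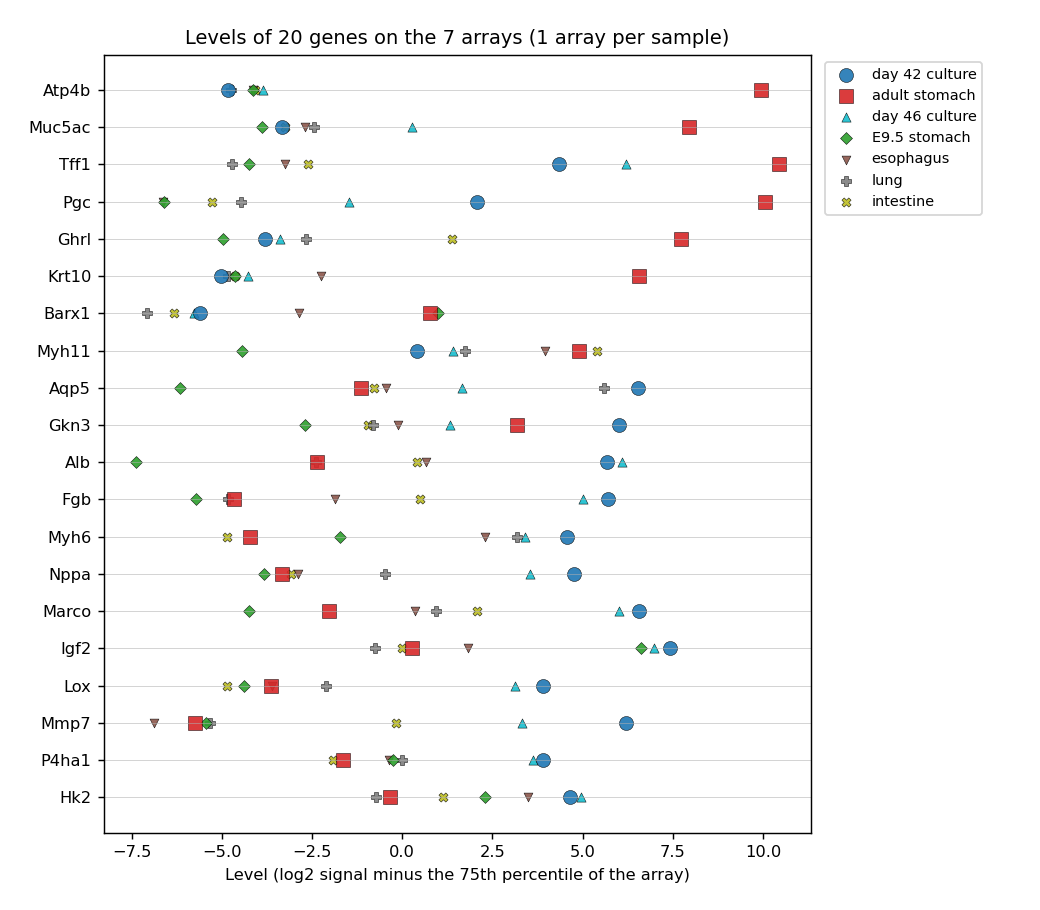
Levels of 20 genes (rows) on the 7 arrays of the series, as log2 signal minus the 75th percentile of the array (horizontal axis), with 1 point per sample. Positions are to be compared within a row only. The day 42 culture (blue circles) and adult stomach (red squares) lie far apart for most of these genes. Examples are Alb at 5.67 and -2.37 and Atp4b at -4.84 and 9.94. Other arrays can lie beyond both, as the day 46 culture and E9.5 stomach do for Alb.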

How the data were processed

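Per the file headers, the deposited scanner files hold background-corrected intensity per spot and flags, from Feature Extraction 10.7.3.1 (day 42) and 10.5.1.1 (adult stomach); the submitters' processing notes name Agilent Feature Extraction 10.5. Control and outlier spots (131 and 80) were left out, and none was saturated. Spots of a probe were averaged as log2 intensity, and the 75th percentile of the array was subtracted. The authors also deposited a log2 table, with medians of -3.33 and -2.86 on these arrays. It is scaled to the 75th percentile, since it matched the values computed here probe by probe (r of at least 0.999 and a median gap of 0.00 on both arrays), and it served as an alternative.

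A RefSeq table (GRCm38.p6), used for names alone, named 24375 of 41174 probes through their accession and 57 through their symbol, and 16742 stayed unnamed. A gene was read from its brightest probe on average over the 7 arrays. A probe was above background where a share of 0.5 or more of its spots carried the flag. A bound that left no difference was set to 0. On these arrays, 78.4% and 85.2% of genes were above background, probes with repeated spots had a median standard deviation of 0.07 and 0.09 (log2), and precision is limited by the number of arrays.

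With 1 array per side no test was run. The members and gene lists were chosen with earlier results of these data known. Named genes are the first 4 of a list, the 6 with the largest difference in it, the extremes of the comparison (20 on each side and the 8 largest bounds) and members of paralog sets. Chosen after their values were seen were the families named so in the text and the genes given as exceptions or contrasts: Actc1, Agr2, Apoa1, Cd163, Egfl7, Eng, Etv5, Gata6, Gkn3, Hamp, Hdc, Hhex, Higd1a, Hk1, Kcnq1, Lipf, Mrc1, Myl2, Nts, Pigr, Pnlip, Slc4a2, Sprr2a1, Tagln, Tnni3 and Trf. The processing was varied by quantile normalization, median centring, the authors' table, normexp (limma 3.58.1, offset 50, on median signals), 3 other filters on background, the mean over probes and a 2-fold limit. The counting was tested on simulated data. Some genes, and the other motifs searched in promoters, are not reported here.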

Additional observations from a re-analysis of the deposited data

Results flagged for a closer look

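Krt20, a keratin of mature surface cells in stomach and intestine, was the 1 named gene that differed from adult stomach by at least 4-fold in both cultures and with opposite signs. It was -2.62 for day 42 minus adult stomach and 2.22 for day 46 minus adult stomach. Both values use the same adult stomach array, there was 1 array per culture, and the difference between them was not tested.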

How the results depend on the processing

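No paired analysis was possible because each group had 1 array. Of 2223 values recomputed under the alternatives, 2 that were past 2-fold as reported changed direction: the median of cartilage and bone genes was 1.15 and became -0.09 with the mean over probes, and that of water, chloride and ion transport genes was -1.09 and became 0.37 over genes above background on both arrays. Another 31 values under 2-fold as reported changed sign, 20 of them medians of 13 lists and 11 of them values of 8 genes. The counts of genes at least 4-fold apart (1095 higher, 1527 lower) became 1717 higher under median centring, where the higher share of these genes was 61.6% in place of 41.8%, and 670 higher and 1001 lower under normexp, while the 2-fold limit gave 2989 and 3356. The parietal median of -2.94 became -4.00 with no filter on background and -3.95 with the mean over probes. The squamous median of -5.76 became -4.62 under normexp and -4.87 over genes above background on both arrays. Under normexp the median of hepatocyte plasma proteins was 3.23 (4.30 as reported) and that of acute phase proteins 4.91 (6.02). Of the values of named genes, 1461 stayed within the spread between probes and 152 moved by more, none changing direction where it was past 2-fold. The causes were not tested. Signals near background limit the bounds: the lowest level above background was -5.57 on the day 42 array and -6.32 on the adult stomach array.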
